A study of Mus musculus with 24 samples.

Results

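The 8 genes described here encode the BAF chromatin remodeler subunits that are exchanged when a neural progenitor becomes a neuron. They were taken by name, as 4 progenitor forms (Actl6a, Phf10, Dpf2, and Ss18) and 4 neuronal forms (Actl6b, Dpf1, Dpf3, and Ss18l1), out of 21951 protein-coding genes of the annotation. Every peak that overlapped the gene body or the 20 kb on either side of it was assigned to the gene, and this window is called its locus. The 8 loci held 261 peaks over the 6 deposited peak lists, between 30 (FOXP1, E18.5) and 51 (FOXP1, E15.5, and TCF7L2, E18.5) in a list. The whole lists held between 24872 and 71411 peaks.

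The peaks came from chromatin immunoprecipitation (ChIP-seq) of 3 autism-associated transcriptional regulators (TRs), ARID1B, FOXP1, and TCF7L2, in wild-type mouse cortex at the embryonic stages E15.5 and E18.5. The sample labels write TCF4 for the third antibody, while the study's text names TCF7L2, which is used here. Each TR and stage had 2 ChIP and 2 input libraries, 24 libraries in all, with no treatment, and 1 list stands for each TR and stage. The study's methods describe peaks called for each replicate and again on the merged replicates, with the merged peaks carried into later steps. Each list is filed under the first replicate of its group and is taken here as the merged one, which could not be checked from the lists. With 1 list per TR and stage the spread between replicates could not be measured, and no p-value for a difference between lists is given. The cortex was profiled as whole tissue with progenitors, neurons, and other cells together, and strong binding in few cells cannot be told apart from weak binding in many. The labels name no strain, sex, or number of pooled embryos, and gene expression was not analysed here.

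BAF (SWI/SNF) complexes use ATP to move nucleosomes and are assembled from interchangeable subunits. In dividing neural progenitors the complex carries the actin-like protein BAF53A (encoded by Actl6a), the PHD-finger proteins BAF45A (Phf10) and BAF45D (Dpf2), and SS18. As cells leave the cell cycle these are replaced by BAF53B (Actl6b), BAF45B (Dpf1), BAF45C (Dpf3), and the SS18-like protein CREST (Ss18l1), and miR-9*, from the opposite arm of the miR-9 precursor, and miR-124 are known to silence Actl6a during this exchange, after their own release from the repressor REST. ARID1B is itself a DNA-binding subunit of the BAF complex, FOXP1 is a forkhead transcription factor, and TCF7L2 is a TCF/LEF factor that responds to Wnt signaling, so the question put to these lists was whether the 3 TRs sit at the genes of the exchanged subunits.

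Promoters of 4 members and a distal site are shown first, as reference sequence of GRCm38, because the promoter peaks and the site inside Dpf3 carry the results that follow. The letters before a start are the 200 bases upstream of a TSS, except for Ss18l1, where the 75 bases between the divergent starts of Ss18l1 and Psma7 are given. Capitals mark matches to the motif letters that are spelled out in the paragraph on motifs.
Actl6a promoter (chr3:32708307-32708506, + strand): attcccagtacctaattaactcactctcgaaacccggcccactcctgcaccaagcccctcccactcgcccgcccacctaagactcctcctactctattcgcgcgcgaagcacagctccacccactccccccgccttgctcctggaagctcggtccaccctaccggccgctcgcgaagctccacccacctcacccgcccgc
Actl6b promoter (chr5:137553317-137553516, + strand): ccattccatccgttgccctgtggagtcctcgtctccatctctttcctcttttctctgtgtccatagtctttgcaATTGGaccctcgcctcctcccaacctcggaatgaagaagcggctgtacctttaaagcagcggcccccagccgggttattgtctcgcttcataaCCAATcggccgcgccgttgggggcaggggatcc
Dpf1 promoter (chr7:29303751-29303950, + strand): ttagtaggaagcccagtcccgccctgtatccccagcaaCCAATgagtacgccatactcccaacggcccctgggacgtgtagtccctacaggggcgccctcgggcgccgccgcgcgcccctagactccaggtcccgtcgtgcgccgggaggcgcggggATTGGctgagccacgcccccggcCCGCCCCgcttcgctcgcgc
Ss18l1 and Psma7 starts (chr2:180042434-180042508, + strand): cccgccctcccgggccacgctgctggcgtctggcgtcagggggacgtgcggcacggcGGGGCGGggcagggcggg
Dpf3 distal summit (chr12:83411764-83411963, + strand): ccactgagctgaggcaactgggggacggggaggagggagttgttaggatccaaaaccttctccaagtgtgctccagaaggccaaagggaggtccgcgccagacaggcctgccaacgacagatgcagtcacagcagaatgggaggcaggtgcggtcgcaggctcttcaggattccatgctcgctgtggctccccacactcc
The sequences before Actl6b and Dpf1 each hold a pair of CCAAT boxes in opposite orientations, the stretch between Ss18l1 and Psma7 is 84% G and C, and the sequence from the Dpf3 intron holds none of the motifs. The Actl6a stretch holds none either, but it ends upstream of the summits of its promoter peak, and each of the 6 windows of 200 bp around those summits held a motif, KLF/SP in 5, NFY in 2, and ETS in 1.

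All of the 8 genes except Phf10 had a promoter peak of every TR at both stages. A promoter peak overlapped the 2000 bp upstream of any annotated TSS of the gene by at least 1 base. The count of 7 of 8 in the E15.5 lists stood beside 58.8% (ARID1B), 61.8% (FOXP1), and 57.3% (TCF7L2) of all coding genes. In the E18.5 lists it stood beside 57.3%, 55.0%, and 61.2% in the same order. Promoter peaks of all 3 TRs were present at the same 7 genes at both stages, against 55.5% (E15.5) and 52.9% (E18.5) of coding genes, and 51.8% of coding genes had a promoter peak in all 6 lists. Since more than 1 in 2 coding genes were called in each list, 7 of 8 is a description of these genes and nothing particular to them. The neuronal forms were all called at E15.5 and E18.5 alike, and the progenitor forms were called at 3 of 4.

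The height of a peak is given as fold enrichment, the authors' ratio of the reads at the summit to the background of the list, with a 95% exact Poisson interval from the reads at the summit, which covers counting error only. Reads without molecular identifiers are not independent molecules, so the true error is larger. The number of reads in the smaller of the paired libraries, as recovered from the lists, was 57.3 to 80.7 M for 5 lists and 26.3 M for FOXP1 at E18.5, the shallowest list. The error of a value follows the reads at its summit, which were fewest for ARID1B at E18.5 (28 to 51 over the 7 called members, beside 31 to 69 for FOXP1 at that stage).

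Median promoter height differed little between the called members and all coding promoters with a peak. For ARID1B the medians of the 7 called members were 5.70 at E15.5 and 6.03 at E18.5, beside 5.17 and 5.61 over all coding promoters with a peak. The FOXP1 medians were 12.3 and 8.50, beside 10.6 and 8.65, and the TCF7L2 medians were 7.13 and 6.79, beside 6.40 and 6.57. Of the 7 members, 6 lay above the coding median in each list at E15.5, and 4 (ARID1B), 3 (FOXP1), and 4 (TCF7L2) of 7 did so at the later stage.

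**Figure D1:**
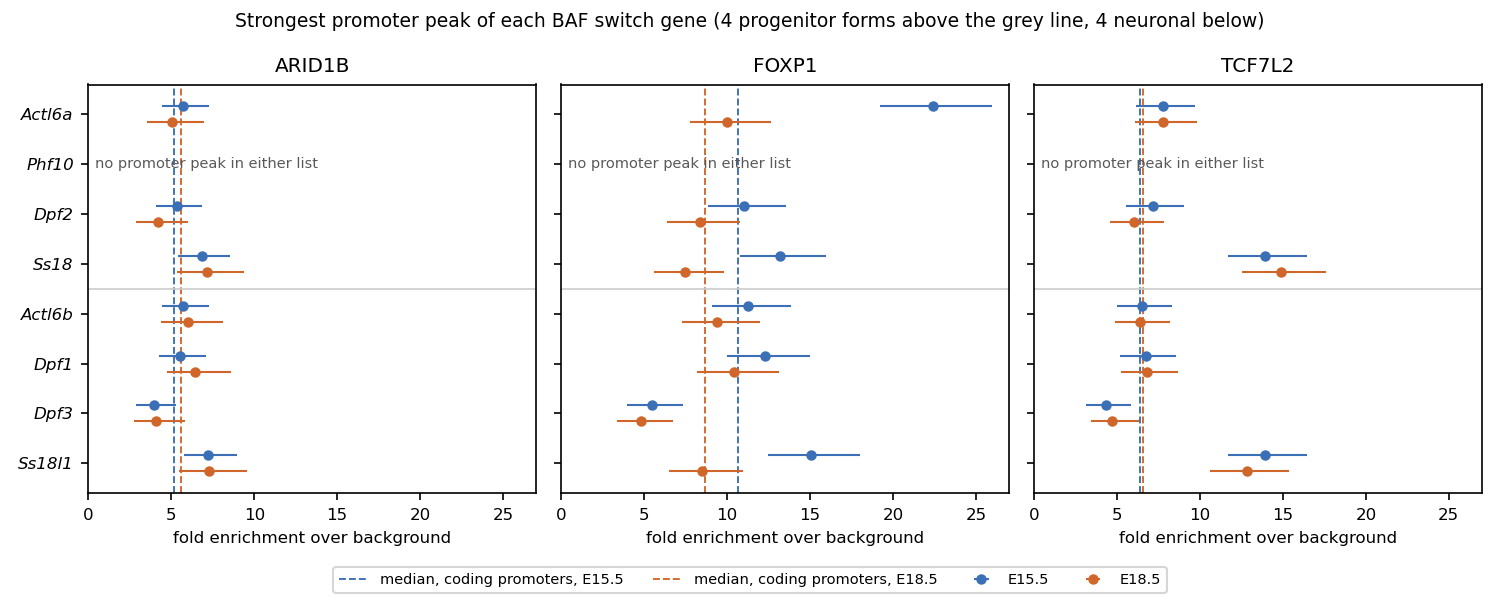
Fold enrichment of the strongest promoter peak (x axis) of each gene (y axis) for the 3 TRs at E15.5 (blue) and E18.5 (orange), with 95% Poisson counting intervals and, as dashed lines, the median of all coding promoters with a peak. FOXP1 at Actl6a fell from 22.4 to 9.98, TCF7L2 was highest at Ss18 and Ss18l1, Dpf3 was the lowest called member in all 6 lists, and Phf10 had no promoter peak.

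Actl6a, the gene of BAF53A in progenitors (chr3:32706298-32726973, + strand), carried the tallest FOXP1 promoter peak of the 8 genes at E15.5. At E18.5 that of Dpf1 was taller, at 10.4. The FOXP1 promoter peak of Actl6a was 22.4-fold enriched at E15.5 (19.2 to 25.9, 176 reads at the summit) and 9.98-fold at E18.5 (7.77 to 12.6, 66 reads). The intervals did not overlap, and the rank of the peak among coding promoters went from percentile 96.7 to percentile 67.5. ARID1B was 5.70-fold enriched at E15.5 (4.41 to 7.27) and 5.05-fold at E18.5 (3.56 to 6.97). TCF7L2 stood at 7.75 (6.11 to 9.72) and 7.77 (6.08 to 9.79). The 6 summits lay within 207 bp of each other, and the taller FOXP1 summit fell in an exon annotated as UTR.

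Actl6b, the gene of BAF53B in neurons (chr5:137553517-137569582, + strand), had a lower FOXP1 peak than its progenitor counterpart at E15.5. At E18.5 the FOXP1 intervals of both genes overlapped. FOXP1 at Actl6b was 11.3-fold enriched at E15.5 (9.06 to 13.8) and 9.39-fold at E18.5 (7.26 to 12), and the intervals of the stages overlapped. ARID1B stood at 5.70 (4.41 to 7.27) and 6.03 (4.39 to 8.10). TCF7L2 stood at 6.50 (5.01 to 8.31) and 6.35 (4.84 to 8.19). At E15.5 the ARID1B summits of Actl6a and Actl6b held the same number of reads, 63, whereas their FOXP1 intervals did not overlap. The summits lay within 130 bp of an annotated start, and the peaks were 747 to 981 bp wide.

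Among the PHD-finger genes, Dpf1 of the neuronal set (chr7:29303951-29318243, + strand) held several promoter peaks in every list, from 2 (FOXP1, E18.5) to 6 (ARID1B, E15.5, and TCF7L2, E18.5), spread over its 10 annotated starts. The strongest was 5.53-fold enriched for ARID1B at E15.5 (4.25 to 7.07) and 6.45-fold at E18.5 (4.74 to 8.59). These were different sites, since the E18.5 summit lay near the internal start at 29308018 and the summits of the other 5 lists near the first starts. FOXP1 stood at 12.3 (9.97 to 15) and 10.4 (8.16 to 13.1), and TCF7L2 at 6.71 (5.19 to 8.55) and 6.79 (5.22 to 8.69).

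Dpf3, the gene of BAF45C (chr12:83213745-83487716, - strand), had the lowest promoter peaks. Its ARID1B peak was 3.93-fold enriched at E15.5 (2.87 to 5.25) and 4.07-fold at E18.5 (2.75 to 5.82), its FOXP1 peak 5.44-fold (3.96 to 7.31) and 4.82-fold (3.36 to 6.74), and its TCF7L2 peak 4.31-fold (3.12 to 5.82) and 4.71-fold (3.42 to 6.32). These values lay between percentile 7.63 (FOXP1, E18.5) and percentile 20.8 (TCF7L2, E18.5) of coding promoters with a peak. Under a stricter minimum of 15 for the −log10 p, Dpf3 lost its promoter peak for ARID1B and TCF7L2 at E15.5 and for ARID1B and FOXP1 at E18.5.

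Dpf2, the gene of BAF45D (chr19:5896516-5913010, - strand), lies opposite the antisense gene Gm42067, and its promoter peaks met the promoters of both. Its ARID1B peak was 5.35-fold enriched at E15.5 (4.10 to 6.87) and 4.21-fold at E18.5 (2.86 to 5.98). FOXP1 stood at 11 (8.83 to 13.6) and 8.36 (6.36 to 10.8), and TCF7L2 at 7.13 (5.55 to 9.02) and 6.02 (4.55 to 7.82). All 3 TRs were lower at E18.5 and every pair of intervals overlapped. The ARID1B peak of E18.5 had a −log10 p of 11.4 and was lost at the minimum of 15 and with lists of equal size. The 6 summits lay within 74 bp of each other and 2 to 38 bp inside the nearest start.

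Ss18 and Ss18l1, whose proteins are paralogs, shared the tallest TCF7L2 promoter peaks of the called members. At Ss18 (chr18:14624198-14682914, - strand) TCF7L2 was 13.9-fold enriched at E15.5 (11.7 to 16.5) and 14.9-fold at E18.5 (12.5 to 17.6). At Ss18l1 (chr2:180042509-180070201, + strand) it was 13.9-fold (11.7 to 16.5) and 12.8-fold (10.6 to 15.3). These peaks ranked between percentiles 98.6 and 99.5 of coding promoters, and their intervals did not overlap those of the other 5 called members at either stage. ARID1B stood at 6.86 (5.43 to 8.56) and 7.15 (5.35 to 9.39) at Ss18 and at 7.21 (5.74 to 8.95) and 7.29 (5.47 to 9.55) at Ss18l1, the highest 2 values at each stage. FOXP1 stood at 13.2 (10.8 to 15.9) and 7.47 (5.60 to 9.80) at Ss18 and at 15.1 (12.5 to 18) and 8.50 (6.49 to 11) at Ss18l1, and at both genes the intervals of the 2 stages did not overlap. The FOXP1 median over coding promoters was also lower at the later stage, so these drops are set against it in the comparison of stages. The Ss18l1 peak cannot be assigned to that gene alone, since Psma7, a proteasome subunit gene, starts on the opposite strand and the peak covered both starts.

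Of the 42 strongest promoter summits, 31 lay within 100 bp of an annotated start. The lists share the same promoters, and this share was not counted over all coding promoters, so it only describes these genes. The promoter interval ends at the start, and the summits themselves often lay just inside the gene. Requiring the summit rather than any base of the peak in the upstream 2000 bp left 4 of 8 members for 5 lists and 5 of 8 for ARID1B at E18.5. Under this rule 47.1% (ARID1B), 50.3% (FOXP1), and 45.4% (TCF7L2) of all coding genes were called at E15.5, and 46.6%, 44.8%, and 48.6% in the same order at E18.5, so 4 of 8 was near the share of all coding genes. Dpf3 and Ss18l1 had no summit in the promoter in any list, Dpf2 had none in the 4 lists of FOXP1 and TCF7L2, and Actl6b had none for ARID1B at E15.5.

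From E15.5 to E18.5 the changes of the promoter peaks were mostly within counting error, and those past it were for FOXP1. The change was taken as the log2 ratio of the strongest promoter peak at E18.5 to that at E15.5, relative to the median ratio over all coding promoters with a peak at both stages. That median was 0.11 for ARID1B, −0.35 for FOXP1, and 0.08 for TCF7L2, and it moves with the depth and background of the lists. Among 21 changes (7 genes and 3 TRs), the 95% counting interval of 2 excluded 0, both for FOXP1. The share of all coding promoters with an interval that excludes 0 was not counted. The 2 are therefore a description of these genes and nothing particular to them. The 2 changes were those of Actl6a, at −0.81 (−1.24 to −0.40), and Ss18l1, at −0.47 (−0.96 to −0.00034), where the upper bound nearly touched 0. Ss18 had a like value of −0.46 with an interval of −0.98 to 0.04. The Ss18 value compares different summits, at 14682920 (E15.5) and 14683208 (E18.5). The span of its E15.5 peak also held a separate, lower E18.5 peak of 4.97.

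Actl6a lay at percentile 3.26 of the FOXP1 changes over all coding promoters, Ss18l1 at 6.23, and Ss18 at 6.44. Dpf2 lay at percentile 2.14 of the ARID1B changes and 4.28 of the TCF7L2 changes, with intervals that included 0. The FOXP1 changes of the other 4 members ranged from −0.04 at Dpf2 to 0.18 at Dpf3 (−0.54 to 0.88), near the middle 50% of coding promoters (−0.17 to 0.17). For Dpf3 the direction depended on the measure, since its percentile went from 16.2 to 7.63. For ARID1B the changes ran from −0.46 at Dpf2 (−1.15 to 0.20) to 0.11 at Dpf1 (−0.48 to 0.69), with a middle 50% of −0.14 to 0.14. The Dpf1 value compares different sites, and the peak at its first start stood at 5.53 and 5.89. For TCF7L2 they ran from −0.32 at Dpf2 (−0.87 to 0.21) to 0.05 at Dpf3 (−0.61 to 0.71), with a middle 50% of −0.12 to 0.12. The median FOXP1 change was −0.46 for the 3 called progenitor forms and 0.10 for the 4 neuronal forms, but Ss18l1, a neuronal form, lay near Ss18. Before the median was subtracted, all 4 neuronal forms were lower at E18.5 (Actl6b −0.26, Dpf1 −0.24, Dpf3 −0.17, and Ss18l1 −0.82). Actl6a, Ss18l1, and Ss18, which fell most, were also the tallest at E15.5. Over coding promoters the upper quartile of FOXP1 height went from 13.8 to 10.6 and the lower from 6.96 to 6.59. The intervals of the changes leave out the differences between embryos, which could not be measured, and the FOXP1 list of E18.5 was the shallowest.

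**Figure D2:**
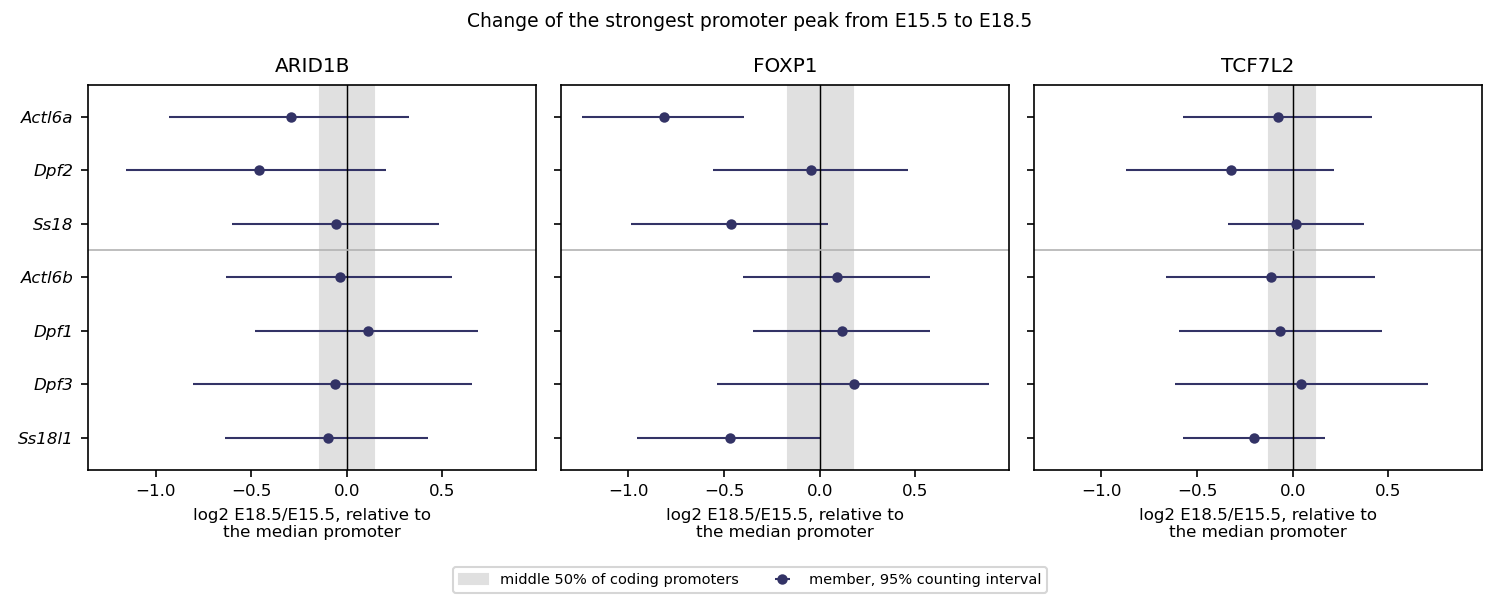
Log2 ratio of the strongest promoter peak at E18.5 to that at E15.5 (x axis), relative to the median of all coding promoters, for the 7 genes with peaks (y axis), with 95% counting intervals and the middle 50% of coding promoters in grey. FOXP1 at Actl6a lies at −0.81, farthest from 0.

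Phf10, the gene of BAF45A in progenitors (chr17:14945009-14961273, - strand), had no promoter peak in any list and no peak within its gene body. The sole peak of each list in its locus lay 18.1 kb from its start, beyond the end of the gene, at the promoters of Wdr27 and 1600012H06Rik (chr17:14942712-14943815). Its fold enrichments in the E15.5 lists were 7.30 (ARID1B), 17.5 (FOXP1), and 6.92 (TCF7L2). In the E18.5 lists they were 8.28, 10.1, and 7.66 in the same order.

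The Phf10 promoter is not unique in the reference genome, and the authors kept only reads with a mapping quality of at least 30. A stretch of 2500 bases from 2000 before to 500 after its start, searched with blastn, aligned at 97.5% identity over 2487 columns to each of 2 further places on the same chromosome, chr17:14992422-14994867 and chr17:15023790-15026235. The 150 bases upstream of the start, shown because they are identical at the 3 places (0 differences; chr17:14992857-14993006 and chr17:15024225-15024374, - strand), read as follows.
Phf10 promoter (chr17:14961274-14961423, - strand): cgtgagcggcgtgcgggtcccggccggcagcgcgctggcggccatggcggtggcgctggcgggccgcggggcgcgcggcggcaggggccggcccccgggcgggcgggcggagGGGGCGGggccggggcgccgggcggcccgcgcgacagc
The capitals mark a KLF/SP match. Of the 1000 reads of 50 bases that start in the 1 kb around the Phf10 start, 69% had an exact copy elsewhere in the genome, 78.9% had a copy with at most 1 difference, and 85.2% with at most 2. When these error-free reads were aligned with bwa mem to chromosome 17, 187 of 1000 (18.7%) reached a mapping quality of 30, against 1000 of 1000 reads from the window of the Wdr27 and 1600012H06Rik peak. At Dpf2, 6.2% of reads had an exact copy and 14.6% a copy with at most 2 differences. At the other 6 genes, 0 of 1000 reads had a copy with at most 2 differences. No list had a peak in the 65.5 kb from the Phf10 start to the end of the last copy. An unbound Phf10 promoter and a promoter whose reads were removed by the mapping filter cannot be told apart in these lists.

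**Figure D3:**
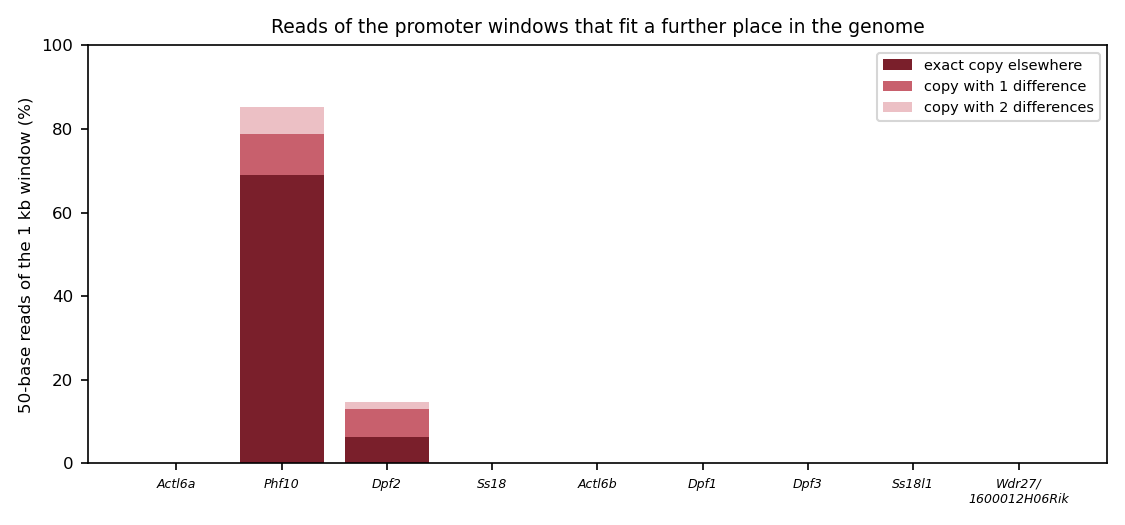
Share of 50-base reads (y axis, percent of 1000 reads) from the 1 kb around each promoter or, at the right, the Wdr27 and 1600012H06Rik peak, that have a copy elsewhere in the genome, exact or with 1 or 2 differences. Phf10 stands at 85.2% and Dpf2 at 14.6%, and the other 7 windows at 0.

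Away from promoters, the neuronal loci held 124 distal peaks over the 6 lists and the progenitor loci 7. A distal peak overlapped no promoter of any annotated gene, so peaks that begin just inside a gene's start count as distal. Per 100 kb of locus and list this came to 4.20 at the neuronal and 0.43 at the progenitor loci, beside 1.64 over all coding loci. Under the −log10 p minimum of 15 the 3 values fell to 0.95, 0.061, and 0.39, and with lists of equal size to 1.76, 0.12, and 0.58. The loci differ in length, 492 kb in all for the neuronal and 272 kb for the progenitor forms, and the range within each set was wide. In the E15.5 lists at least 1 distal peak was found at 4 of 8 loci with ARID1B (50.6% of coding loci), 6 with FOXP1 (54.1%), and 3 with TCF7L2 (34.3%). In the E18.5 lists it was found at 5 (49.3%), 4 (30.3%), and 5 (47.0%) in the same order. Actl6b, Dpf1, and Dpf3 had distal peaks in every list.

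The mean density over the 6 lists was 15.7 distal peaks per 100 kb at Dpf1, 4.16 at Actl6b, 2.81 at Dpf3, and 1.48 at Ss18l1. It was 0.68 at Ss18, 0.55 at Actl6a, 0.30 at Dpf2, and 0 at Phf10. The copied sequence described above covers 2000 bp of the upstream flank of Phf10. There, reads removed by the mapping filter cannot be told apart from unbound sequence. The rest of that flank and most of the gene were not searched for copies. The neuronal values lay between percentiles 66.3 and 99.7 of coding loci and those of Ss18, Actl6a, and Dpf2 between 39.6 and 50.9, with a median of 0.64 over coding loci. Without Phf10 the progenitor density was 0.54. Dpf1 supplied 51 of the 124 neuronal peaks, and without it the neuronal density was 2.78. With distal set as beyond 2000 bp on either side of a TSS, the neuronal density was also 2.78, the progenitor density 0.12, and that of all coding loci 1.31. In gene bodies alone the 3 values were 3.46, 0.59, and 1.77. Of the 14 distal peaks at Actl6b, 0 lay in the gene itself, whereas 44 of 53 did at Dpf3, 20 of 51 at Dpf1, and 5 of 6 at Ss18l1. The flanks hold other genes, and which gene a distal peak acts on was not tested.

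**Figure D4:**
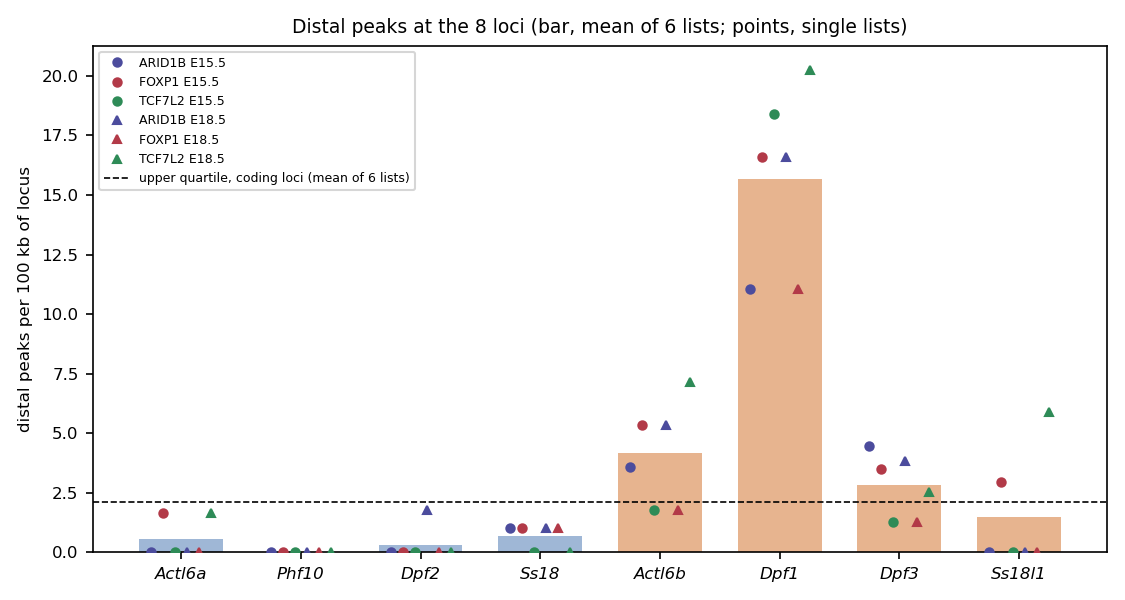
Distal peaks per 100 kb of locus (y axis) at the progenitor (blue bars) and neuronal forms (orange bars), as the mean of 6 lists, with the single lists as points (circles E15.5, triangles E18.5). The bars run from 0 at Phf10 to 15.7 at Dpf1, and the dashed line marks the upper quartile of all coding loci, 2.12.

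Joined over the lists, the peaks formed 53 separate sites at the 8 loci, of which 29 touched no promoter and 22 were present in all 6 lists. The sites both distal and present in all 6 lists numbered 5, with 2 at Dpf1, 2 at Dpf3, and 1 at Actl6b. A further 11 sites were seen in a single list, 5 of them at Ss18l1. Sites were not joined over all coding loci, so these counts have no background share and only describe the 8 loci.

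The strongest distal site of Dpf3 lay in an intron of the gene, 75.9 kb from its start (chr12:83411445-83412436), and its summit sequence is printed above. ARID1B was 8.64-fold enriched there at E15.5 (7.02 to 10.5) and 9.54-fold at E18.5 (7.42 to 12.1), above the intervals of its Dpf3 promoter peaks at both stages. Of all distal ARID1B peaks, 4.83% and 4.65% were as high. For FOXP1 the shares of distal peaks as high were 9.46% and 34.8%, and for TCF7L2 19.4% and 7.37%. The site was picked within its locus by its number of lists and its height. This choice favors a high rank, so the shares only describe the site. FOXP1 stood at 6.33 (4.71 to 8.33) and 5.27 (3.73 to 7.25) and TCF7L2 at 4.83 (3.56 to 6.42) and 5.36 (3.98 to 7.08), all within the intervals of their Dpf3 promoter peaks. The gene held 13 distal sites in its locus of 314 kb. Its ARID1B lists had 14 and 12 distal peaks at E15.5 and E18.5, its FOXP1 lists 11 and 4, and its TCF7L2 lists 4 and 8.

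The strongest distal site of Dpf1 lay 11.6 kb upstream of its start, in an intron of the neighboring gene Ppp1r14a, which encodes an inhibitor of myosin phosphatase (chr7:29290686-29294429). ARID1B was 10.9-fold enriched there at E15.5 (9.11 to 13.1) and 12.1-fold at E18.5 (9.66 to 14.9), above both intervals of its strongest Dpf1 promoter peak. Of distal ARID1B peaks, 1.98% and 2.01% were as high. The shares were 4.02% and 39.3% for FOXP1 and 5.07% and 1.55% for TCF7L2. This site was picked in the same way, so its shares only describe it. TCF7L2 stood at 6.61 (5.10 to 8.43) and 7.66 (5.99 to 9.67) and FOXP1 at 7.85 (6.03 to 10.0) and 5.12 (3.61 to 7.08). The FOXP1 values were below its promoter values of 12.3 and 10.4.

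At Actl6b the distal site present in all lists lay 30.5 kb downstream of the start in a coding exon of Tfr2, the gene of transferrin receptor 2 (chr5:137583612-137584503). FOXP1 was 8.23-fold enriched there at E15.5 (6.36 to 10.5) and 8.50-fold at E18.5 (6.49 to 11), ARID1B 3.39-fold (2.42 to 4.64) and 5.47-fold (3.91 to 7.46), and TCF7L2 5.98-fold (4.55 to 7.73) and 5.25-fold (3.89 to 6.95). At the edge of the same locus, the promoters of Gnb2, Epo, Mir6418, and Gm17112 carried taller peaks than Actl6b itself, with FOXP1 at 19.6 and 13.1 and TCF7L2 at 15.1 and 15.

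The remaining loci held little besides promoters. At Actl6a a distal site 7.92 kb upstream appeared in 2 lists, 3.8-fold for FOXP1 at E15.5 and 3.28-fold for TCF7L2 at E18.5, and the shared promoter of Mrpl47 and Ndufb5 lay within the flank. At Ss18l1 the distal site seen in most lists, in an intron (chr2:180051046-180051416), appeared in the same 2 lists at 2.66 and 3.28. Another intronic site (chr2:180045327-180045547) was taller, at 3.42, but was seen only for FOXP1 at E15.5. At Ss18 an intronic site 32.8 kb from the start (chr18:14649905-14650364), beside the small RNA gene Gm24924, was 5.79-fold enriched for ARID1B at E15.5 and 5.75-fold at E18.5, 3.8-fold for FOXP1 at E15.5, and without a peak in the other 3 lists. A further 3 distal sites at Ss18l1, from 2.63 to 2.96, were seen only for TCF7L2 at E18.5. The other promoters with peaks were those of Slc25a45, Tigd3, and Cdc42ep2 at the Dpf2 locus and those of Lsm14b and Mtg2 at the Ss18l1 locus. The promoters named for Dpf1 were those of Ppp1r14a and Gm44632.

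**Figure D5:**
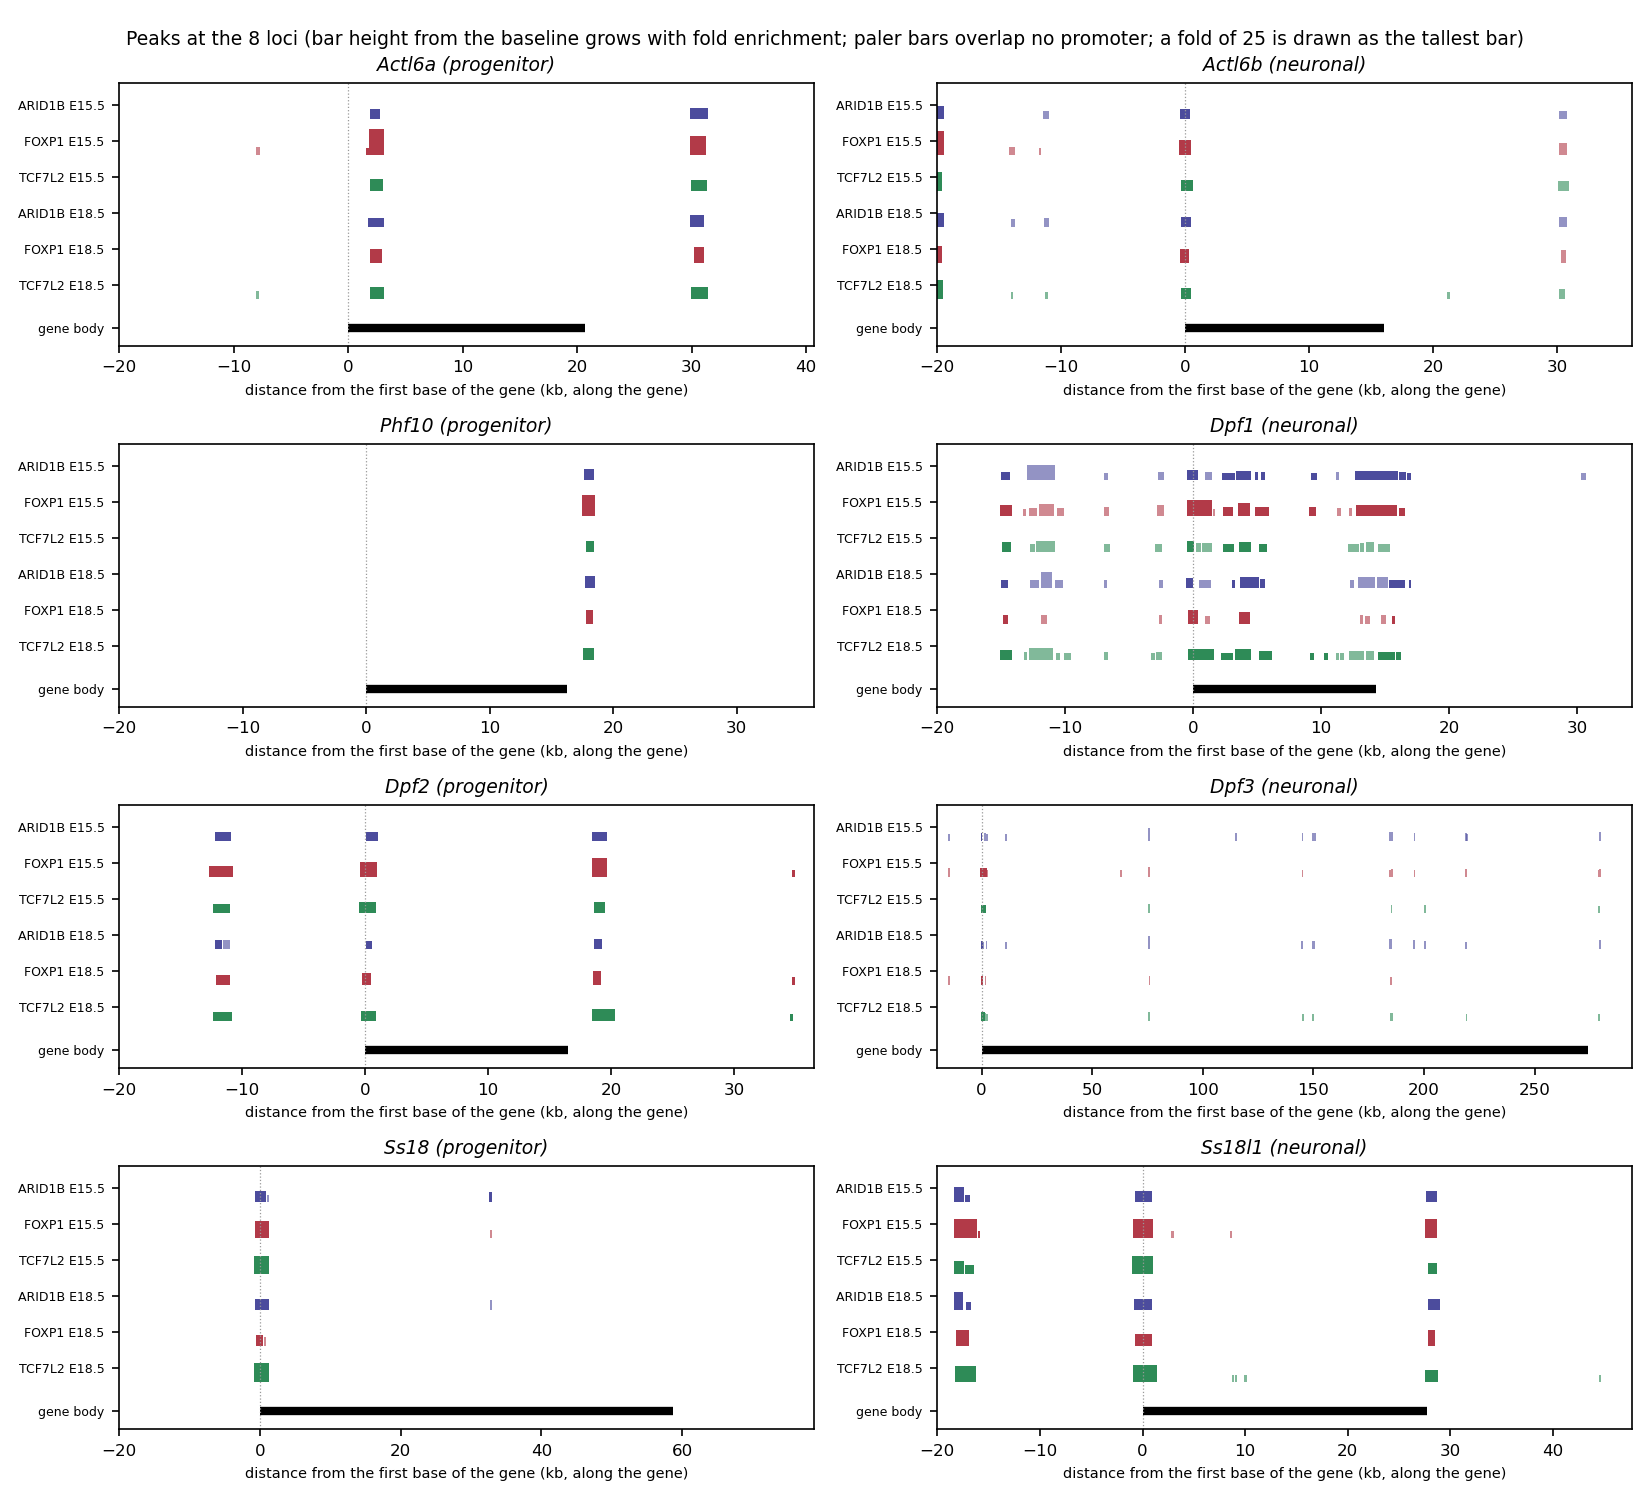
Peaks of the 6 lists (rows) at each locus, by distance from the first base of the gene (x axis, kb), with the gene body as a black bar, darker bars for peaks at a promoter, paler bars for distal peaks, and bar height growing with fold enrichment. Dpf1 shows 10 to 20 peaks in every list, Dpf3 shows distal peaks along its 274 kb, and Phf10 shows a single site past its end.

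The other subunits of the complex were called throughout. All 23 further BAF subunit genes had a promoter peak in each of the 6 lists, beside the background shares given above. Their median fold enrichments in the E15.5 lists were 6.50 (ARID1B), 13.5 (FOXP1), and 8.07 (TCF7L2), and in the E18.5 lists 6.17, 9.53, and 8.54. Each was above the median of the 7 called members. The highest values were those of Arid1a for ARID1B (11.2 and 13.5), Bcl11b (29.0) and Actb (15.4) for FOXP1, and Actb (12.9) and Bcl7a (13.0) for TCF7L2, the earlier stage first. The lowest were those of Bcl11b for ARID1B (3.66 and 4.49), Bcl11a for FOXP1 (7.97 and 5.56), and Bicral for TCF7L2 (3.58 and 3.61). FOXP1 at Actl6a, with 22.4 at E15.5, lay between the median and the highest of this set. Its fall to 9.98 at E18.5 was smaller than that of Bcl11b, from 29.0 to 5.71 (percentile 97.8 to 16.3).

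By the mean absolute difference in percentile over the 6 lists, Actl6b and Dpf1 were both most like Brd9 (7.09 and 8.0 percentile points), and Actl6a was most like Smarcb1 (11.2). Ss18l1 was most like Bcl7a (7.49), Ss18 like Arid2 (10.5), and Dpf2 like Brd7 (12.9). Dpf3 was farthest from this set, with Bcl11b nearest at 23.9.

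Among 7 genes that act on the exchange are 6 microRNA genes, 3 of Mir9 and 3 of Mir124a, whose annotated start is that of the short precursor. All 6 had a peak in the 2000 bp upstream in 5 lists, and 5 of 6 had one for FOXP1 at E18.5, where Mir9-2 had none. Of all 2202 microRNA genes, 15.8% (ARID1B), 17.1% (FOXP1), and 13.1% (TCF7L2) were called in the E15.5 lists and 14.8%, 11.2%, and 15.9% in the E18.5 lists. Rest, which encodes the repressor of neuronal genes outside neurons, was called in all 6 lists and showed 4.37 and 4.49 for ARID1B, 7.59 and 6.74 for FOXP1, and 8.49 and 9.30 for TCF7L2 at E15.5 and E18.5. Its TCF7L2 peaks ranked at percentiles 83.0 and 87.2 of coding promoters, and its ARID1B and FOXP1 peaks between 22.2 and 28.9.

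In 200 bp windows around the 42 promoter summits, the letters of the KLF/SP motif (GGGGCGG) were found in 25, of the NFY motif (CCAAT) in 18, of the YY1 motif (AAGATGG) in 7, and of the ETS motif (CCGGAAG) in 2. The forkhead letters TGTTTAC, the TCF/LEF letters TCAAAG, and the E-box CAGCTG were found in 0 of 42. Both strands were searched, and no motif contains another. Over the strongest summits of all coding promoters, the share of windows with the letters ranged over the 6 lists from 28.4% to 35.2% for KLF/SP, 19.8% to 25.8% for NFY, 4.81% to 5.59% for YY1, 11.5% to 15% for ETS, 0.99% to 1.37% for forkhead, 5.25% to 5.79% for TCF/LEF, and 10.7% to 14.4% for the E-box. The 6 windows of a gene overlap each other, so that the 42 windows stand for 7 promoters. KLF/SP letters were found in every window of Ss18l1, NFY letters in every window of Actl6b and Ss18l1, and YY1 letters in every window of Dpf2. The share of G and C in the windows ran from 48.5% to 69.5% at Dpf3, 50% to 59.5% at Dpf2, 53.5% to 75% at Actl6b, and 61% to 69.5% at Actl6a. It was higher at Ss18 (68.5% to 76%), Dpf1 (70.5% to 78.5%), and Ss18l1 (74.5% to 76%). A match of letters is not a binding site, and its absence from a window says nothing about the factor.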

How the data were processed

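The members and gene lists were chosen with earlier results of these data known. ChIP and input libraries of wild-type cortex (50-base single reads) were aligned by the authors with bwa mem (BWA 0.7.15) to the main contigs of GRCm38 (mm10 in the submitters' processing notes), kept at a mapping quality of 30 or more, merged over replicates (as the methods describe the final lists; each is filed under a first replicate), and called with MACS2 2.2.7 without a local background, with reads extended to 200 bp. The deposited lists hold, per summit, fold enrichment (a ratio with a pseudocount of 1), −log10 p-value, −log10 q-value, and a score derived from q by the authors' caller, which was not used. No list held a −log10 q under 2.08.

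The reads behind a summit and the library sizes were recovered from the deposited fold enrichments and p-values, which the Poisson model ties together (100% of pairs matched). Genes and TSSs came from GENCODE vM21, and peaks sharing at least 1 base counted as overlapping. Peaks off the main chromosomes were left out. Copies of 50-base reads were searched in the whole genome with at most 2 differences, Phf10 with blastn 2.17.0 and bwa 0.7.19, a check chosen after the missing peak was seen. Steps ran in Python 3.11.15 and were tested on simulated data. No test between lists could be made, so members are counted beside all coding genes. BCL11A and TBR1, human libraries, and ATAC-seq were not analysed here. The alternatives tried are given in the closing section.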

Additional observations from a re-analysis of the deposited data

How the results depend on the processing

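No paired analysis was possible because each TR and stage has 1 list, taken as merged over the replicates, and for the same reason no replicate could be left out. Members with a promoter peak, 7 in each list, came to 5 to 7 at a stricter p (40.1% to 55.0% of coding genes) and with lists of equal size (39.9% to 55.7%), and to 7 under 3 other promoter definitions (53.8% to 64.0%). With the summit in the promoter they came to 4 in every list except that of ARID1B at E18.5 (44.8% to 50.3%), and the promoters with all 3 TRs to 3 at E15.5 (37.7%) and 4 at E18.5 (35.9%). With the lists in the order ARID1B, FOXP1, TCF7L2, the earlier stage first, the peaks at the loci were 48, 51, 34, 47, 30, and 51. At a −log10 p of at least 15 they were 22, 23, 19, 23, 14, and 20. With lists of equal size they were 20 and 23 for ARID1B and FOXP1 at E15.5 and 23 and 27 for ARID1B and TCF7L2 at E18.5. In the gene bodies alone they were 30, 28, 18, 25, 15, and 27, and within 50 kb they were 79, 83, 53, and 75 for the first 4 lists and 88 for TCF7L2 at E18.5. Distal peaks per 100 kb at the neuronal loci (4.20) came to 0.95 at the stricter p, 1.76 with lists of equal size, 2.78 beyond 2000 bp on either side of a TSS, 3.46 in gene bodies, and 2.78 without Dpf1, an alternative chosen after the data were seen. At the progenitor loci (0.43) they came to 0.061, 0.12, and 0.12 under the first 3 of these, and to 0.54 without Phf10, also chosen after the data were seen. The neuronal density stayed above the progenitor density in these settings. These counts fall or rise with the length searched and the peaks kept. Stage differences whose interval excluded 0 kept their sign. Others did not when taken as the lists give them, without the median subtracted. The member median went from −0.063 to 0.051 for ARID1B and from −0.078 to 0.0032 for TCF7L2. That of FOXP1 went from −0.044 to −0.40. FOXP1 changed sign at Actl6b (0.09 to −0.26), Dpf1 (0.12 to −0.24), and Dpf3 (0.18 to −0.17).

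The limits are those of 1 list per TR and stage. Intervals cover counting error only, FOXP1 at E18.5 had the smallest library, and weak peaks were not detectable at its depth.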
